A study of Ovis aries with 16 samples.

Results

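Mitochondrial ATP8, ATP6 and cytochrome b (CYTB) were followed in the myocardium (heart muscle) of 16 adult female sheep. They are 3 of the 27054 features in the deposited table and 3 of its 37 mitochondrial features, chosen by feature ID: ENSOARG00000000021 (ATP8), ENSOARG00000000022 (ATP6) and ENSOARG00000000035 (CYTB). The table does not pair IDs with gene names. The names rest on the order of the mitochondrial genes, which the first 37 IDs of the Oar_v3.1 gene set are taken to follow. There were 4 groups with 4 animals each, and within each group the libraries carry the numbers 0 to 3. Control animals came from ewes given corn oil alone and ate the control diet. BPA animals came from ewes injected subcutaneously with bisphenol A, a plasticiser that can act as an oestrogen, in corn oil at a daily dose of 0.5 mg/kg from day 30 to day 90 of gestation, and ate the control diet. Obese animals came from ewes given corn oil and were overfed, and ObBPA animals came from ewes given bisphenol A and were overfed. Feeding diverged at 14 weeks of age, with 1.4 lbs of corn and 1.4 lbs of hay a day under the control diet and 1.7 and 1.6 lbs at the start of overfeeding, which later became ad libitum. Both rations also held 0.03 lbs of a supplement a day. All animals received 2 injections of 20 mg prostaglandin F2α 11 days apart, and hearts were taken at 21 months of age, in the presumed follicular phase.

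The mitochondrial genome encodes a small set of proteins, all of them subunits of the oxidative phosphorylation complexes of the inner membrane. ATP6 and ATP8 are membrane subunits of ATP synthase: ATP6 forms part of the path by which protons cross the membrane, and ATP8 is a very short protein needed for assembly of the membrane sector. Their reading frames overlap, and they are carried on a shared transcript. CYTB is the only subunit of complex III, the ubiquinol-cytochrome c reductase, that the mitochondrial genome encodes, and it holds the haem groups that pass electrons between the quinone sites. The mitochondrial strands are each transcribed as a long precursor, from which transfer RNAs are cut out to release the messenger RNAs and ribosomal RNAs. The heart works almost wholly on oxidative phosphorylation, and its tissue is rich in mitochondrial RNA.

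Levels are FPKM, which are fragment numbers divided by transcript length and by the mapped fragments of the library, so genes are compared per length. The summed FPKM of a library ranged from 2611772 to 5455705, and the 37 mitochondrial features held 62.6% to 77.0% of it. The last feature in the gene order, the transfer RNA ENSOARG00000000037 (trnP), alone held 20.0% to 48.5%. These are shares of FPKM and not of fragments. Division by length lets features as short as transfer RNAs reach a high FPKM from few fragments. Ranks by FPKM carry the same limit. Each library held 12333 to 12835 features with FPKM of 1 or more, and absolute depth is unknown. The table gave no symbols, so cardiac marker genes were not examined here. Nothing in the labels says more of the libraries numbered 0 than their number. They stood apart from the other 12, with 23.8% of 13251 features called by limma (adjusted p under 0.05), and each group held 1 of them.

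ATP6 and CYTB were among the most abundant features of every heart, whereas ATP8 was listed at 0 in 11 of 16. ATP6 had FPKM values of 39625 to 71281 (median 52217) and ranked 7th to 10th of all features in its library. CYTB had values of 25348 to 42203 (median 34019) and ranked 10th to 16th. ATP8 did not exceed 15.2. Of the summed FPKM of the 13 mitochondrial messenger RNAs, ATP6 made up 14.5% to 17.4% and CYTB 9.61% to 11.3%. ATP8 made up at most 0.00423%. In bulk tissue, fewer cells of a type and less RNA per cell cannot be told apart, and this holds for every level given here.

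Among the 13 mitochondrial messenger RNAs the order of levels was much the same in all hearts. COX1, the catalytic subunit of cytochrome c oxidase, was highest in each library. COX3, another cytochrome c oxidase subunit, and ATP6 took the next places, with ATP6 2nd in 1 library and 3rd in the other 15. CYTB was 4th or 5th, beside ND4, a proton-pumping subunit of complex I. ATP8 was 12th or 13th, beside ND3, also of complex I, which had an FPKM of 0 to 2.04.

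Along the mitochondrial gene order, ATP8 ended a run of 5 neighbouring features at or near 0. After COX1, with a median FPKM of 88060, trnS2, trnD and trnK were listed at 0 in all 16 libraries. COX2, which lies between trnD and trnK and encodes a copper-binding subunit of cytochrome c oxidase, had values of 12.9 to 36.2. The cause of this low level was not tested. ATP8 followed, and the level then stepped up at ATP6 and at COX3, its other neighbour, which had a median of 62048. ATP8 and ATP6 overlap in the RefSeq annotation of assembly ARS-UI_Ramb_v3.0, and fragments from the overlap could be counted for either gene, so the level of ATP8 is uncertain. In the 5 libraries with ATP8 above 0, the FPKM of ATP6 was 3937 to 6429 times that of ATP8. The name of ATP8 rests on its place in the order alone. At the other end of the order, CYTB lay between trnE, with a median FPKM of 290300, and trnT, with a median of 8450.

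**Figure D1:**
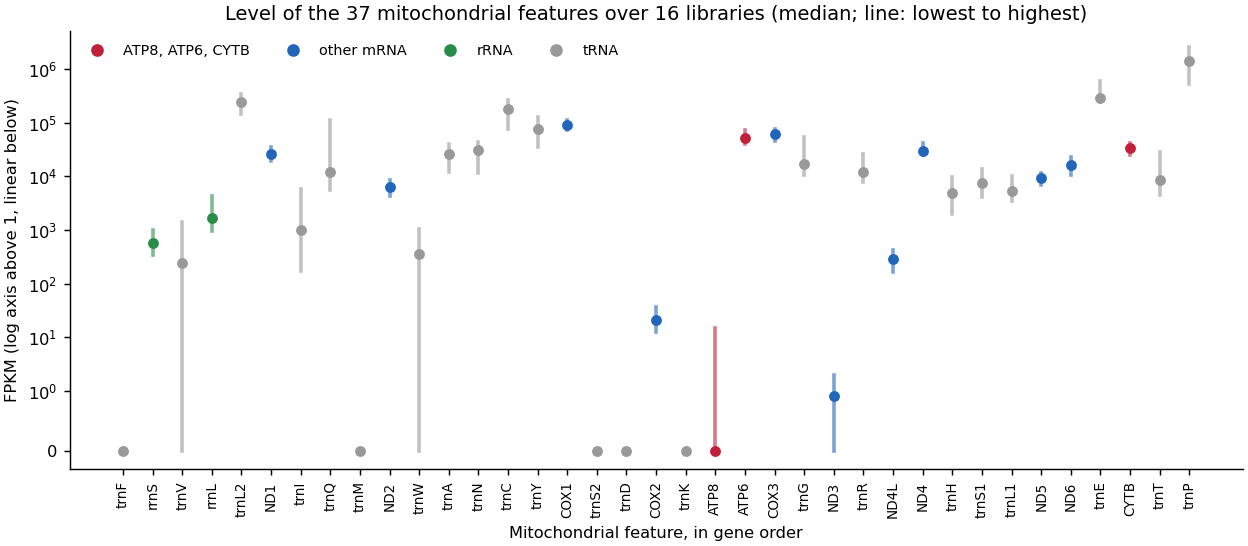
FPKM (log axis above 1, linear below) of the 37 mitochondrial features in gene order; points are medians over 16 libraries and lines run from the lowest to the highest library. ATP8 (median 0) sits at the end of a run of low features between COX1 and ATP6, while ATP6 (median 52217) and CYTB (median 34019) lie among the abundant messenger RNAs.

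ATP6 varied within every group by more than the group means differed. Its FPKM in libraries 0 to 3 was 57018, 62110, 52976 and 49014 in control hearts and 65721, 50509, 40850 and 51457 in BPA hearts. In obese hearts it was 60028, 39625, 54863 and 46182, and in ObBPA hearts 71281, 39895, 58325 and 41284. All groups overlapped, and library 0 was the highest of its group in BPA, obese and ObBPA hearts, but not in control hearts, where library 1 was. The control mean was 55279 ± 5605 and the BPA mean 52134 ± 10247, with 50175 ± 9061 for obese and 52696 ± 14958 for ObBPA animals (SD, n = 4). In the order control, ObBPA, BPA, obese, no neighbouring means differed by more than the SD of either group.

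CYTB followed the same pattern at a lower level. Its FPKM in libraries 0 to 3 was 36692, 39125, 32050 and 33001 in control hearts and 38338, 32255, 27475 and 35037 in BPA hearts. In obese hearts it was 36526, 27100, 35424 and 29878, and in ObBPA hearts 42203, 29892, 41349 and 25348. The groups overlapped, and the ObBPA libraries included both the highest and the lowest value of the 16. The control mean was 35217 ± 3286 and the BPA mean 33276 ± 4598, with 32232 ± 4491 for obese and 34698 ± 8388 for ObBPA animals (SD, n = 4), again in the order control, ObBPA, BPA, obese, with neighbours closer than their SDs. The coefficient of variation over all 16 libraries was 15.1% for CYTB and 18.2% for ATP6, against 14.0% for COX3 and 13.4% for COX1.

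ATP8 was above 0 in 2 control, 1 BPA, 2 obese and 0 ObBPA libraries. It was listed at 11.7 in control library 0, 12.2 in control library 3, 10.2 in BPA library 0, 15.2 in obese library 0 and 7.86 in obese library 3. The other 11 libraries, all 4 ObBPA libraries among them, were listed at 0. A 0 in such a table may mean that no fragment was seen or that no level could be estimated. Since FPKM divides by length, the value of so short a gene is also sensitive to the length assigned to it. With ATP8 above 0 in 3 of the 4 libraries numbered 0 and in 2 of the other 12, the values also moved with the library number.

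**Figure D2:**
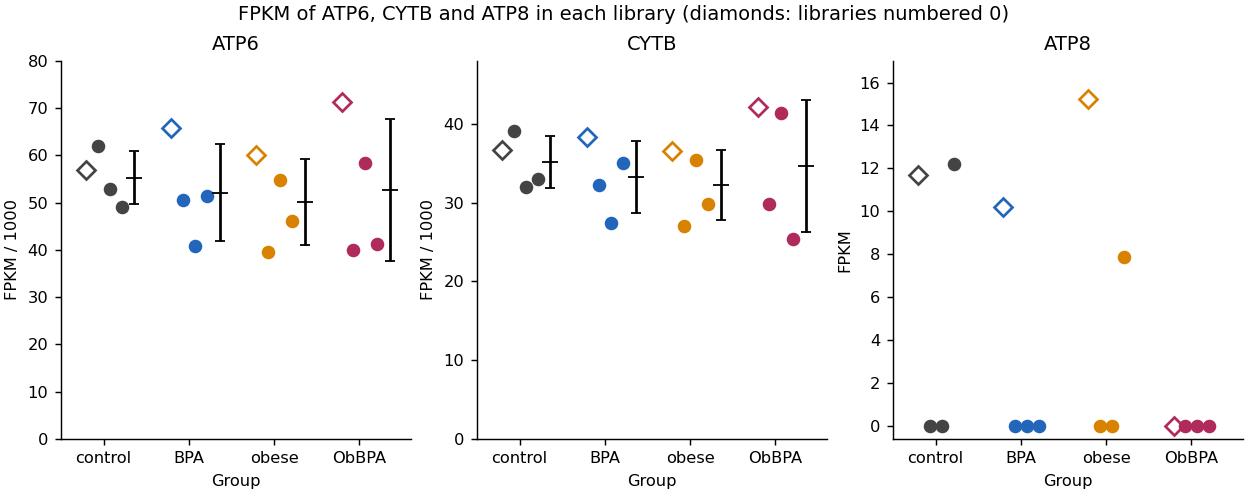
FPKM of ATP6, CYTB and ATP8 in each of the 16 libraries by group; diamonds are the libraries numbered 0, and bars beside ATP6 and CYTB show the mean ± SD of 4 libraries. The groups overlap for ATP6 and CYTB, and ATP8 is at 0 in 11 libraries, including all 4 of ObBPA.

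ATP6 was higher than CYTB, and both were higher than ATP8, in 16 of 16 libraries. The mean difference in log2(FPKM + 1) between ATP6 and CYTB was 0.63 ± 0.098 (SD, n = 16), a 1.55-fold difference in level. The differences from ATP8 on the same scale were 14.53 for ATP6 and 13.90 for CYTB, where the 11 zeros make the size dependent on the added 1. An exact two-sided sign-flip permutation test gave p = 3.05e-05 for each of the 3 pairs, the smallest it can give with 16 libraries, and the same value after Benjamini-Hochberg adjustment over the 3 pairs. For the pairs with ATP8 this outcome was fixed by its listed values at or near 0. As the level of ATP8 is uncertain, that p-value says nothing of the order of the transcripts.

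The level of CYTB relative to ATP6 was held within a narrow range. The ratio of their FPKM ran from 0.583 in BPA library 0 to 0.749 in ObBPA library 1, with a mean of 0.649 ± 0.0446 (SD, n = 16). Among the 36 pairs of the 9 mitochondrial messenger RNAs with an FPKM over 1000 in every library, the SD of the log2 ratio ranged from 0.098 to 0.238, with a median of 0.158. For CYTB and ATP6 it was 0.098, the 2nd smallest after ND4 and COX1, although the genes are not neighbours. Over 16 libraries log2 FPKM of ATP6 and CYTB had a Pearson r of 0.934 and a Spearman rho of 0.924 (permutation p = 1e-05 for each, the smallest that 100000 resamples can give). Without obese library 1 and ObBPA library 0, the farthest from the median of ATP6, r was 0.909. Among the 12 libraries numbered 1 to 3 it was 0.919, and the 4 numbered 0 are too few for a value. This was the 1 pair of genes given such a test, so no adjustment was made over pairs. The values of a library share its scaling and its depth, and after median-of-ratios scaling or scaling to the non-mitochondrial sum r was 0.956 and 0.959. Each scaling divides both genes by the same factor, so it cannot remove what they share through the library. Among the 36 pairs r in log2 FPKM ran from 0.512 for ND5 and COX3 to 0.943 for ATP6 and ND2. A positive r is therefore no trait of ATP6 and CYTB alone, and the permutation p does not set this pair apart.

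**Figure D3:**
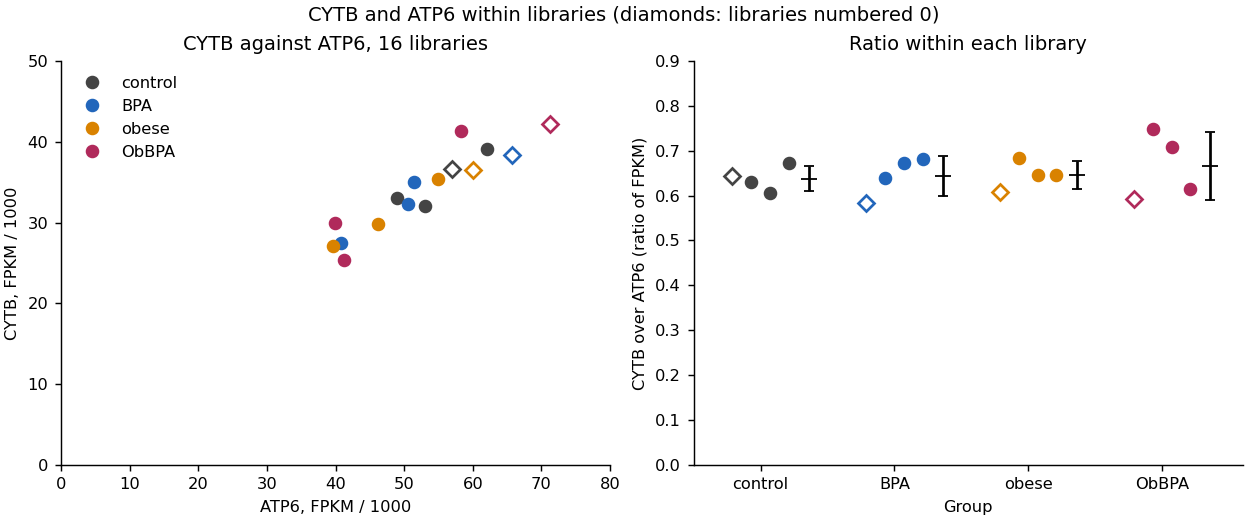
Left, FPKM of CYTB against ATP6 in 16 libraries; right, the ratio of CYTB to ATP6 in each library by group with the mean ± SD of 4 libraries; diamonds are the libraries numbered 0. The points lie along a line with r of 0.934 on the log2 scale, and the ratio stays between 0.583 and 0.749.

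For prenatal BPA without overfeeding (BPA against control), none of the 3 genes differed by more than the spread between animals. The difference in log2(FPKM + 1) was -0.10 ± 0.208 (SE) for ATP6, with a 95% interval of -0.54 to 0.35, and -0.09 ± 0.179 (SE) for CYTB, with an interval of -0.47 to 0.30. As folds, these intervals run from 0.686 to 1.27 for ATP6 and from 0.722 to 1.23 for CYTB. ATP8 had a difference of -0.97 ± 1.12 (SE), with an interval of -3.37 to 1.42. The adjusted p by limma was 0.999 for each. Thus 0 of 3 were called, against a background of 0% of 13251 features, and 0 of 3 had an unadjusted p under 0.05, against 2.45% of features. In 0 of 3 did the libraries of the groups not overlap, against 1.18%.

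The same exposure in overfed animals was measured as ObBPA against obese. ATP6 differed by 0.05 ± 0.208 (SE; 95% interval -0.40 to 0.49) and CYTB by 0.08 ± 0.179 (SE; -0.30 to 0.47) on the log2(FPKM + 1) scale. ATP8, at 0 in all ObBPA libraries and above 0 in 2 obese libraries, differed by -1.79 ± 1.12 (SE; -4.19 to 0.61). The adjusted p by limma was 1 for each. Calls numbered 0 of 3 (background 0%), unadjusted p under 0.05 also 0 of 3 (1.96%), and groups without overlap 0 of 3 (2.02%).

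Overfeeding without prenatal BPA, obese against control, gave differences in log2(FPKM + 1) of -0.15 ± 0.208 (SE; 95% interval -0.60 to 0.29) for ATP6 and -0.13 ± 0.179 (SE; -0.52 to 0.25) for CYTB. For ATP8, with 2 libraries above 0 in each group, it was -0.05 ± 1.12 (SE; -2.45 to 2.35). The adjusted p by limma was 0.886 for ATP6, 0.885 for CYTB and 0.995 for ATP8. Again 0 of 3 were called (background 0%), 0 of 3 had an unadjusted p under 0.05 (4.45%), and 0 of 3 had groups without overlap (1.89%).

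Overfeeding after prenatal BPA, ObBPA against BPA, was measured next. ATP6 differed by -0.01 ± 0.208 (SE; 95% interval -0.45 to 0.44) and CYTB by 0.04 ± 0.179 (SE; -0.35 to 0.42) in log2(FPKM + 1). ATP8, above 0 in BPA library 0 alone, differed by -0.87 ± 1.12 (SE; -3.27 to 1.53). The adjusted p by limma was 1.00 for each. There were 0 of 3 calls (background 0%), 0 of 3 with an unadjusted p under 0.05 (1.67%) and 0 of 3 without overlap (1.77%).

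For the combined exposure, ObBPA against control, the differences in log2(FPKM + 1) were -0.11 ± 0.208 (SE; 95% interval -0.55 to 0.34) for ATP6, -0.05 ± 0.179 (SE; -0.43 to 0.33) for CYTB and -1.85 ± 1.12 (SE; -4.25 to 0.55) for ATP8. The adjusted p by limma was 0.957, 0.974 and 0.941. The counts were 0 of 3 called (background 0%), 0 of 3 with an unadjusted p under 0.05 (3.54%) and 0 of 3 without overlap (1.41%).

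The difference between the 2 prenatal BPA effects, with and without overfeeding, was tested as an interaction. It was 0.15 ± 0.294 (SE; 95% interval -0.48 to 0.77) for ATP6, 0.17 ± 0.253 (SE; -0.37 to 0.71) for CYTB and -0.82 ± 1.59 (SE; -4.21 to 2.58) for ATP8, in log2(FPKM + 1). The adjusted p by limma was 0.999 for each, with 0 of 3 called (background 0%) and 0 of 3 with an unadjusted p under 0.05 (2.72%). Scaling each library to its non-mitochondrial FPKM drew the ATP6 and CYTB differences of the 6 contrasts to between -0.01 and 0.05. The sign of these small values thus depended on the scaling, in ObBPA against obese and ObBPA against BPA for ATP6, and in obese against control and ObBPA against control for CYTB. These contrasts share groups, so their values are not independent of each other.

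The ATP8 differences depended on how the libraries were weighted and on the number added before the logarithm. With library weights, which give a library less influence the more it varies, the difference was -2.68 for BPA against control (limma, unadjusted p = 0.0113), -2.99 for ObBPA against control (unadjusted p = 0.00680) and -1.76 for obese against control (unadjusted p = 0.0742). That of ObBPA from BPA was -0.31. With the library number as a block the values stayed as they were, and the unadjusted p by limma was 0.0415 for ObBPA against obese and 0.0367 for ObBPA against control. The share of all features with an unadjusted p under 0.05 with the weights or the block is not given here. These p-values therefore have no background to be set against. The lowest adjusted p by limma among these ATP8 values was 0.334, so none was called. With 0.1 in place of 1 added, the ATP8 difference of BPA from control was -1.78 and that of ObBPA from obese -3.39. ObBPA then differed by -1.67 from BPA and by -3.46 from control.

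**Figure D4:**
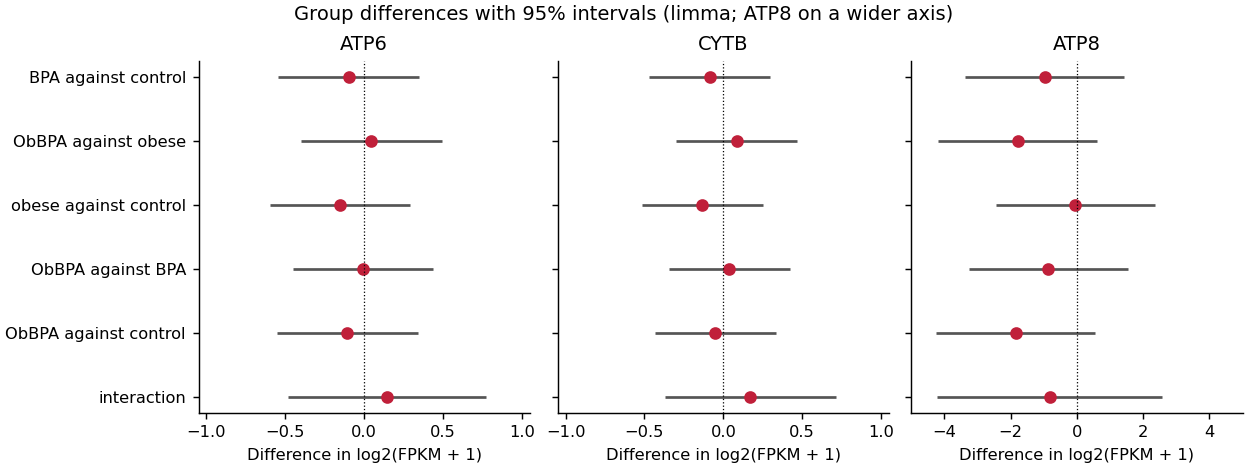
Difference in log2(FPKM + 1) of ATP6, CYTB and ATP8 (points) with 95% intervals (lines) from limma, for the 5 pairwise contrasts and the interaction; the ATP8 axis is wider. Every interval includes 0, and those of the 5 pairwise contrasts lie within -0.60 to 0.49 for ATP6 and -0.52 to 0.47 for CYTB.

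The other 10 mitochondrial messenger RNAs, the subunits of complex I (ND1 to ND6 and ND4L) and of cytochrome c oxidase (COX1 to COX3), were likewise not called in any of the 6 contrasts by limma, in either direction. For BPA against control 3 of 10 had a positive and 7 a negative difference, with a median of -0.04, beside 0.00 over all features tested. For obese against control 3 were positive and 7 negative, with a median of -0.13 beside -0.01 over all features. ATP6 and CYTB lay inside the range of these genes in all 5 pairwise contrasts. ATP8 lay inside it, at -0.37 to 0.67, for obese against control, and below their lowest value in the other 4. That lowest value was -0.20 for BPA set against control and -0.44 for ObBPA set against obese, while ObBPA gave -0.42 set against BPA and -0.22 set against control. The ATP8 differences had an SE of 1.12, rested on 5 libraries above 0 and depended on the added 1. A larger fall of ATP8 than of these genes cannot be read from them. For ObBPA against obese 7 were positive and 3 negative, with a median of 0.08 beside 0.01. The interaction was positive for 9 and negative for 1, with a median of 0.08 beside 0.01.

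ATP6 and CYTB were also set against other mitochondrial RNA of the same library, a measure that the scaling between libraries cannot move. The CYTB to ATP6 ratio averaged 0.638 ± 0.0285 for control, 0.644 ± 0.0443 for BPA, 0.646 ± 0.0308 for obese and 0.666 ± 0.0752 for ObBPA animals (SD, n = 4). In the 5 pairwise contrasts its log2 difference was 0.01 to 0.06, and the smallest p by an exact two-sided permutation test was 0.543. The ratio of ATP6 to the median of the other 10 messenger RNAs, which is the midpoint of ND6 and ND5 in 15 libraries and of ND6 and ND2 in 1, was higher in obese than in control hearts. It was 3.99, 4.19, 3.89 and 4.22 in control libraries 0 to 3 and 4.39, 4.36, 4.93 and 4.42 in obese libraries 0 to 3, so the groups did not overlap. The log2 difference was 0.15, with p = 0.0286 by the exact permutation test, the smallest that 4 against 4 allows, and an adjusted p of 0.286 over the 10 tests of both ratios. It therefore did not pass the correction, and no single comparison could have passed it alone at this group size. Without obese library 2 the log2 difference was 0.11 (exact permutation p = 0.0571). ATP6 itself was not higher in obese hearts: its difference from control in log2(FPKM + 1) was -0.15, beside -0.37 for ND6 and -0.12 for ND5. The higher ratio is thus relative to the genes at the midpoint and is no rise of ATP6. In BPA hearts the same ratio was 4.04 ± 0.277 and in ObBPA hearts 4.27 ± 0.266 (SD, n = 4), and the other 4 contrasts had an exact permutation p of 0.2 to 0.8.

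Mean levels of ATP6 and CYTB were higher in the libraries numbered 0 than in the others, and whether the difference passed the test depended on the scaling. ATP6 had a mean FPKM of 63512 ± 6313 in the libraries numbered 0 (SD, n = 4) and 48924 ± 7519 in the other 12 (SD, n = 12). CYTB had 38440 ± 2639 (SD, n = 4) and 32328 ± 4829 (SD, n = 12). By limma with the groups in the model, the difference in log2(FPKM + 1) was 0.39 ± 0.138 (SE, adjusted p = 0.0577) for ATP6 and 0.26 ± 0.130 (SE, adjusted p = 0.157) for CYTB. Neither was called, beside 23.8% of all features. ATP8 passed the filter on low values only through the libraries numbered 0, where it is high. Its difference between library numbers is therefore given without a p-value. ATP8 was above 0 in 3 of 4 libraries numbered 0 and in 2 of the other 12. The median difference of all features was -0.15 as deposited and -0.01 after median-of-ratios scaling. After that scaling ATP6 differed by 0.55 ± 0.131 (SE, adjusted p = 0.0161) and CYTB by 0.43 ± 0.124 (SE, adjusted p = 0.0412), and both were called by limma, as 12.1% of features were. The ratio of CYTB to ATP6 was 0.607 ± 0.0266 in the libraries numbered 0 (SD, n = 4) and 0.662 ± 0.0410 in the others (SD, n = 12), a difference that was not tested. With the libraries numbered 0 left out, the group differences of ATP6 were -0.25 to -0.02 and those of CYTB -0.18 to 0.04 in the 5 pairwise contrasts, and neither was called by limma.

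As deposited, single libraries also decided the call of ATP6 between library numbers. A call appeared without control library 1 (limma, adjusted p = 0.0185) and without ObBPA library 2 (limma, adjusted p = 0.0439). The share of all features called in these fits is not given here. In the fit to all libraries it was 23.8%, so a call there is no trait of ATP6 alone.

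The features whose pattern over the 16 libraries was most like each gene were sought among the 13248 features tested other than the 3 genes themselves, and the highest for both ATP6 and CYTB lay outside the mitochondrial set. ATP6 and CYTB had an r of 0.934 with each other, which for CYTB was above that of every feature named here, and for ATP6 was below ENSOARG00000025366 and ND2. ENSOARG00000025366, with FPKM values of 2796 to 5278, had a Pearson r in log2(FPKM + 1) of 0.950 with ATP6 and 0.890 with CYTB. With the 3 genes left aside, the next for ATP6 were ND2 (r = 0.943) and ND6 (r = 0.916), and for CYTB they were ND6 (r = 0.883) and COX1 (r = 0.882). Outside the mitochondrial set, ATP6 was next most like ENSOARG00000015462 (r = 0.871) and ENSOARG00000020485 (r = 0.853), and CYTB was next most like ENSOARG00000020485 (r = 0.815) and ENSOARG00000009363 (r = 0.813). These 3 features had median FPKM values of 14.7, 1.49 and 14.9 in the order named. ATP8 was most like ENSOARG00000009100 (r = 0.791), ENSOARG00000017633 (r = 0.778) and ENSOARG00000015226 (r = 0.763), and had an r of 0.256 with ATP6 and 0.186 with CYTB. These are descriptions over 16 libraries that share their scaling, picked as the highest of the 13248.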

How the data were processed

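Poly-A RNA of myocardium was sequenced in 16 sheep, with 4 libraries a group. The deposited values were FPKM computed by the authors, per the file headers. The submitters' processing notes name build Oar_v3.1, Cuffdiff 2.1.1 with Cufflinks, Bowtie2 2.1.0 and TopHat2 2.0.9, and FastQC; settings are not given in the sources used here. Members and lists were chosen with earlier results of these data known. Features with FPKM of at least 1 in at least 4 libraries were tested: 13251 of 27054, all 3 members included, ATP8 through 5 libraries, 3 of them numbered 0. Group means of log2(FPKM + 1) were fitted over all 16 libraries with limma 3.58.1 (R 4.3.3, trended prior variance, two-sided), with Benjamini-Hochberg adjustment over all features within a contrast at a false discovery rate of 0.05. The pseudocount of 1 hardly touches ATP6 and CYTB and strongly affects ATP8. Ratios within libraries were tested by exact permutation (Python 3.11.15). A planned ratio of ATP8 to ATP6 was not computed, because ATP8 is listed at 0 in 11 libraries, so the ratio tests numbered 10. The procedures were tested on simulated data. The rule for named genes gave the 3 members in full, the other mitochondrial messenger RNAs by counts, neighbouring features by level, and the 3 features most correlated with each member. The gene order was checked against RefSeq (ARS-UI_Ramb_v3.0), where the kind of gene was the same at 37 of 37 places and the symbol at 13 of 13 messenger RNAs. This checks the list of names and not the IDs, of which 0 matched that table.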

Additional observations from a re-analysis of the deposited data

Results flagged for a closer look

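Of 20 groups of 4 libraries examined for the 3 genes and the 2 ratios, 2 held a library far from the other 3, and chance flags about 1 in 20 groups. That rate does not hold for ATP8. There, 1 value above 0 beside 3 zeros always gives a gap of the whole range, and 4 zeros give no range. ATP8 in BPA hearts was 10.2 in library 0 and listed at 0 in the other 3, so the gap took up the whole range (1.0 of it). The ratio of ATP6 to the median of the other 10 mitochondrial messenger RNAs in obese hearts was 4.93 in library 2 and 4.36 to 4.42 in the other 3, a gap of 0.884 of the range. Neither is a treatment difference, and the value of obese against control without that library stands with the comparison above.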

How the results depend on the processing

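No member was called in any of the 6 treatment contrasts under any alternative: the adjusted p by limma lay between 0.334 and 1 over 477 values, the reported ones included. Sign changes occurred in 7 of 171 alternatives that kept the libraries or changed them as a set and in 23 of 288 that left out 1 library. Many of these alternatives could not move a difference. Leaving out a library from outside the groups of a pairwise contrast does not alter it. Nor do the fits without the filter or the variance trend, with the block or a term for library number 0, or of only the groups compared. The counts therefore do not measure how stable the signs are. With scaling to the non-mitochondrial sum the differences became -0.0018 for ATP6 in ObBPA against obese, 0.0056 for ATP6 in ObBPA against BPA, 0.013 for CYTB in obese against control and 0.049 for CYTB in ObBPA against control. With library weights they became 0.018 for CYTB in ObBPA against control and 1.44 for the interaction of ATP8, and with the libraries numbered 0 left out -0.021 for ATP6 in ObBPA against obese; the cause was not tested. ATP8 failed the filter when those libraries were left out, so no value was given. Leaving out each library in turn gave ATP6 differences of -0.11 to 0.17 (ObBPA against obese), -0.22 to 0.011 (BPA against control), -0.17 to 0.11 (ObBPA against BPA), -0.27 to 0.013 (ObBPA against control) and -0.014 to 0.27 (interaction). For CYTB they were -0.021 to 0.22, -0.16 to 0.00078, -0.067 to 0.18 and -0.16 to 0.090 in the same 4 pairwise contrasts. For ATP8 they were -0.80 to 0.57 (obese against control), -1.16 to 0 (ObBPA against BPA) and -1.44 to 0.055 (interaction). The log2 ratio of CYTB to ATP6 ran from -0.016 to 0.058 (BPA against control), -0.021 to 0.092 (ObBPA against obese), -0.0091 to 0.047 (obese against control), -0.014 to 0.099 (ObBPA against BPA) and -0.0025 to 0.11 (ObBPA against control), and that of ATP6 to the other messenger RNAs from -0.055 to 0.017 (BPA against control). Between library numbers, the differences with median-of-ratios scaling were 0.55 for ATP6 and 0.43 for CYTB. With scaling to the non-mitochondrial sum they were 0.58 and 0.45 (adjusted p by limma 0.0110 and 0.0239), and both were called, as 9.47% of features were. Leaving out each library gave 0.30 to 0.49 for ATP6 and 0.21 to 0.32 for CYTB. For ATP8 the differences were 2.32 and 2.33 with these scalings, and 1.80 to 2.96 on leaving out each library. The ATP8 values are sizes alone, since it passed the filter only through the libraries numbered 0, where it is high. These comparisons between library numbers were chosen after seeing the data. Over all features, library weights gave 1 call for BPA against control, 6 for obese against control and 1 for ObBPA against control, where 0 were called as reported. Fitting only the groups compared gave 2 calls for ObBPA against BPA, 4 for obese against control, and 1 each for ObBPA against obese and ObBPA against control. No filter gave 1 for ObBPA against control, and leaving out single libraries gave 0 to 1. With the replicate block, ATP6 differed by -0.10 in BPA against control (limma, adjusted p = 0.916), and no call changed; the unadjusted p of ATP8 under the block stands with the contrasts above. Same-numbered libraries had correlations of deviations from the group means of -0.084 to 0.16, with 1 of 24 over 0.1. For the libraries numbered 0 they were 0.047 to 0.16, with a median of 0.074. The medians were 0.018, 0.0011 and -0.00099 for the numbers 1, 2 and 3, and -0.0097 between different numbers. Whether the numbers pair the animals cannot be told from these values. FPKM gives no depth, so the number of fragments behind the ATP8 values is unknown.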
